A study of Mus musculus with 12 samples.

Results

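The mitochondrial genome of the mouse was followed through its 37 annotated genes, taken as every row of the count table whose Ensembl identifier carries a symbol that starts with mt-. They are 37 of 51826 genes in the table, and they comprise 13 protein coding genes, 2 rRNA genes and 22 tRNA genes. Bone marrow cells of 2 C57BL/6 mice were grown with IL7, the cytokine that pre-B cells need to survive and divide, for 7 days. The pre-B cells of each mouse were then transduced with a pMIG empty vector (EV) or with a retrovirus that encodes BCR-ABL1, the fusion kinase of Philadelphia chromosome-positive leukemia, and were held in IL7 for 48 h. This gave 3 lines per mouse and vector, named 1A to 1C and 2A to 2C, or 6 EV lines and 6 BCR-ABL1 lines. IL7 was then withdrawn from the BCR-ABL1 lines for 1 week, whereas the EV lines stayed in IL7 and were sorted for GFP, so the kinase, the absence of IL7 and the absence of a GFP sort coincide and cannot be told apart. The lines of a mouse derive from that single animal. The comparison asks how the RNA of the mitochondrial genome differed between transformed and untransformed pre-B cells.

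Mitochondrial DNA is a small circle whose strands, called heavy and light, are each copied into long transcripts that span most of the circle. tRNAs lie between the protein coding and rRNA genes in these transcripts, and cutting them out releases the mature mRNAs and rRNAs. The mRNAs encode core subunits of respiratory complexes I, III and IV and of ATP synthase, and the remaining subunits, as well as the polymerase, the processing enzymes and the ribosomal proteins, are encoded in the nucleus.

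The 12 libraries held 34791011 to 66011225 counts, with a median of 53482987 in the EV lines and 51773507 in the BCR-ABL1 lines. The 10 B lineage marker genes were present in every line, at 21.8 CPM (the count per TMM-scaled library size, set to a common depth) or more each. Summed myeloid markers stayed at or below 7.56 CPM, T and NK cell markers at or below 3.76 CPM, erythroid markers at or below 12.7 CPM and stromal markers at or below 1.81 CPM. The library kit removes cytosolic and mitochondrial rRNA, so the rRNA values give what was left after this step. In bulk RNA, fewer cells of a type and less RNA per cell cannot be told apart.

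Sequences are shown first for the tRNAs with the largest fold changes or the most counts. Of these tRNAs, only mt-Ty was called beyond 1.5-fold. Each sequence runs from 5′ to 3′ on its own strand, with the anticodon in capitals. All were read from the GENCODE M21 transcripts of GRCm38. mt-Ty (tRNA for tyrosine, ENSMUSG00000064350, chrM:5260-5326, minus strand), mt-Tt (threonine, ENSMUSG00000064371, chrM:15289-15355, plus strand) and mt-Ti (isoleucine, ENSMUSG00000064342, chrM:3706-3774, plus strand) differed most in level, and mt-Tp (proline, ENSMUSG00000064372, chrM:15356-15422, minus strand) had the most counts.
mt-Ty: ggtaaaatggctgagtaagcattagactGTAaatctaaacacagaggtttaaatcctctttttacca
mt-Tt: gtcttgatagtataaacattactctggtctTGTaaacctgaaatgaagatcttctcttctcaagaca
mt-Ti: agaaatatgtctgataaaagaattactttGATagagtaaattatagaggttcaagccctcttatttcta
mt-Tp: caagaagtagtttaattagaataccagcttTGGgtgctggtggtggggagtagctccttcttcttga

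A second set of sequences bears on how the mRNA counts can be read. Annotated pseudogenes on chromosome 1 copy part of the mitochondrial genome, and the pairs below give 80 bases of a gene and the same stretch of its copy. mt-Co2 (chrM:7053-7132, plus strand) and Gm28661 (chr1:24615446-24615525, minus strand) had the same 80 bases.
mt-Co2: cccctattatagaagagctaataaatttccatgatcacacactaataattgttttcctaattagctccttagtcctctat
Gm28661: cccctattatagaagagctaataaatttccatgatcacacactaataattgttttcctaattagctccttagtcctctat
mt-Nd3 (chrM:9459-9538, plus strand) and Gm28438 (chr1:24613040-24613119, minus strand) differed only by T3C, counted from base 1 of mt-Nd3 and set in capitals.
mt-Nd3: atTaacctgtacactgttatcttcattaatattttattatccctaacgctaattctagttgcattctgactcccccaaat
Gm28438: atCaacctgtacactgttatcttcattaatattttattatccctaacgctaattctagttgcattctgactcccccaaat

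Mitochondrial RNA of all classes made up 2.52% to 3.81% of the counts in the EV lines, with a median of 2.90%, and 1.18% to 2.74% in the BCR-ABL1 lines, with a median of 2.29%. Most of it was rRNA. The rRNA share was 1.83% to 3.24% (median 2.22%) in EV and 0.636% to 2.15% (median 1.70%) in BCR-ABL1. The groups overlapped, and line BCR-ABL1 2A was the lowest of the 12. Means were 2.36% ± 0.51 (SD, n = 6) in EV and 1.57% ± 0.55 (SD, n = 6) in BCR-ABL1, which puts the difference of -0.79 percentage points above the pooled SD of 0.527.

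Protein coding genes took a smaller and steadier share. It was 0.576% to 0.708% (median 0.679%) in EV and 0.543% to 0.633% (median 0.588%) in BCR-ABL1. The ranges overlapped because EV 2B, at the lower end of its group, fell among the BCR-ABL1 lines. The means were 0.662% ± 0.047 (SD, n = 6) and 0.588% ± 0.029 (SD, n = 6). Their difference of -0.0738 percentage points was, as for rRNA, larger in size than the pooled SD, here 0.0388. tRNA genes took 0.00219% to 0.00551% (median 0.00308%) of the counts in EV and 0.00340% to 0.00401% (median 0.00357%) in BCR-ABL1, and the difference of the means was smaller than the pooled SD of 0.000842 percentage points. The shares are given as descriptions without a test.

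**Figure D1:**
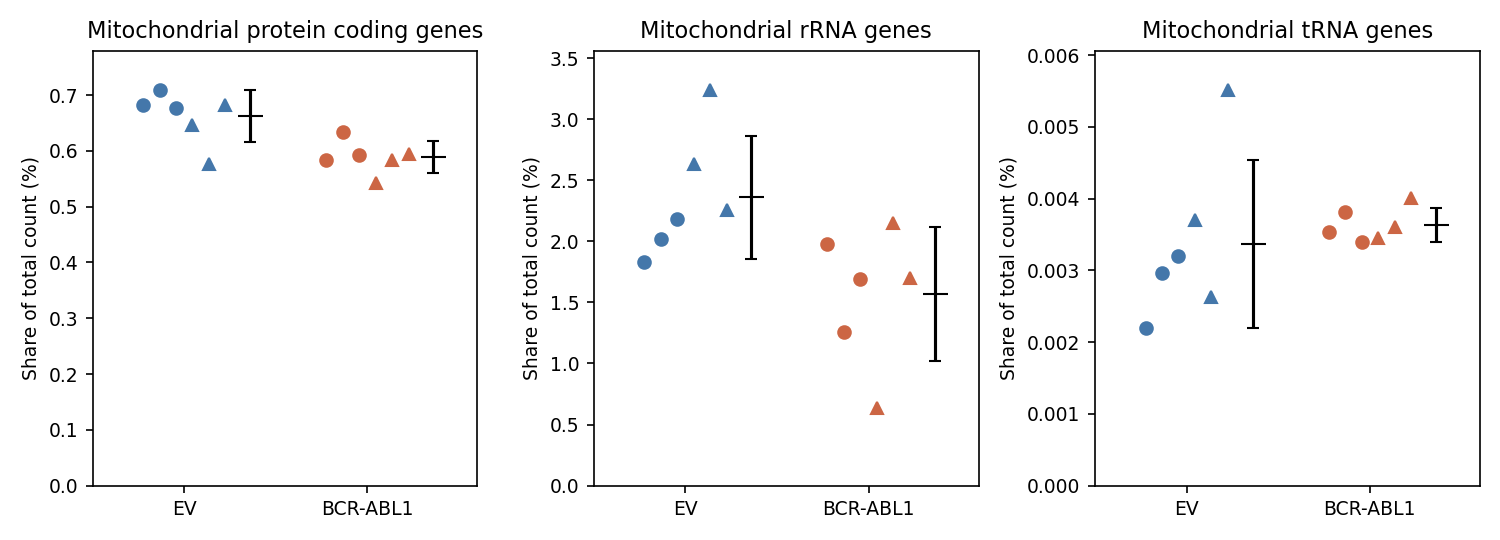
Share of each line's total count (%) taken by the 13 protein coding, 2 rRNA and 22 tRNA genes of the mitochondrial genome. Each symbol is 1 line (circles, mouse 1; triangles, mouse 2), with lines 1A to 2C from left to right, and the bar gives the mean ± SD of 6 lines. The groups overlap in each class, and BCR-ABL1 2A has the lowest rRNA share, 0.636%.

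Both rRNAs of the mitochondrial ribosome had lower mean levels in the BCR-ABL1 lines, and neither gene passed the test beyond 1.5-fold. For mt-Rnr2 the estimated change was itself smaller than 1.5-fold. mt-Rnr1, the rRNA of the small subunit, ranged from 1593 to 2921 CPM (median 1915) in EV and from 337 to 2090 CPM (median 1426) in BCR-ABL1. mt-Rnr2, the rRNA of the large subunit, ranged from 15269 to 30117 CPM (median 19646) in EV and from 6288 to 19888 CPM (median 15708) in BCR-ABL1. BCR-ABL1 2A had the lowest value of either gene and EV 2B the highest, and the groups overlapped. The log2 fold changes (BCR-ABL1 over EV, edgeR) were -0.64 for mt-Rnr1 and -0.53 for mt-Rnr2, with adjusted p of 0.697 and 0.871 in the edgeR quasi-likelihood test against a 1.5-fold change. Against no change, the adjusted p were 0.128 and 0.111. Among mouse 1 lines alone the log2 fold change was -0.14 for either gene, and among mouse 2 lines alone it was -1.13 for mt-Rnr1 and -0.85 for mt-Rnr2.

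The rRNA genes varied within a group. Their median coefficient of variation was 24.7% in EV and 39.4% in BCR-ABL1, whereas mitochondrial protein coding genes had 17.9% and 15.6% and the tested tRNA genes had 38.2% and 23.4%. Across the 8613 tested genes with a mean of at least 10 CPM, the medians were 15.9% and 7.61%. The part that rRNA removal plays in this spread was not tested. Genes that hold nuclear rRNA or rRNA-like repeats (Gm42418, Gm26917, Gm23935 and Lars2) together took 0.585% to 1.16% of the counts in EV and 0.801% to 0.940% in BCR-ABL1, and BCR-ABL1 2A, at 0.801%, was the lowest of its group there and within the EV range.

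mt-Rnr1 and mt-Rnr2 lie close to each other in the same transcript, with mt-Tv between them. Their ratio of counts, mt-Rnr2 over mt-Rnr1, was 9.23 to 10.9 (median 10.2) in EV and 8.80 to 18.7 (median 11.4) in BCR-ABL1. The EV lines kept within a narrow band, while BCR-ABL1 2A, at 18.7, stood far above the other lines of its group. The mean log2 ratio differed by 0.22 (95% interval -0.13 to 0.57) between the groups, with p = 0.175 in a two-sided exact permutation test over all 924 labelings and 0.175 after adjustment over 2 ratios. The smallest p that these labelings allow is 0.00216. With lines exchanged only within a mouse, the exact permutation p was 0.07. Without BCR-ABL1 1A, the exact permutation p was 0.0238.

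**Figure D2:**
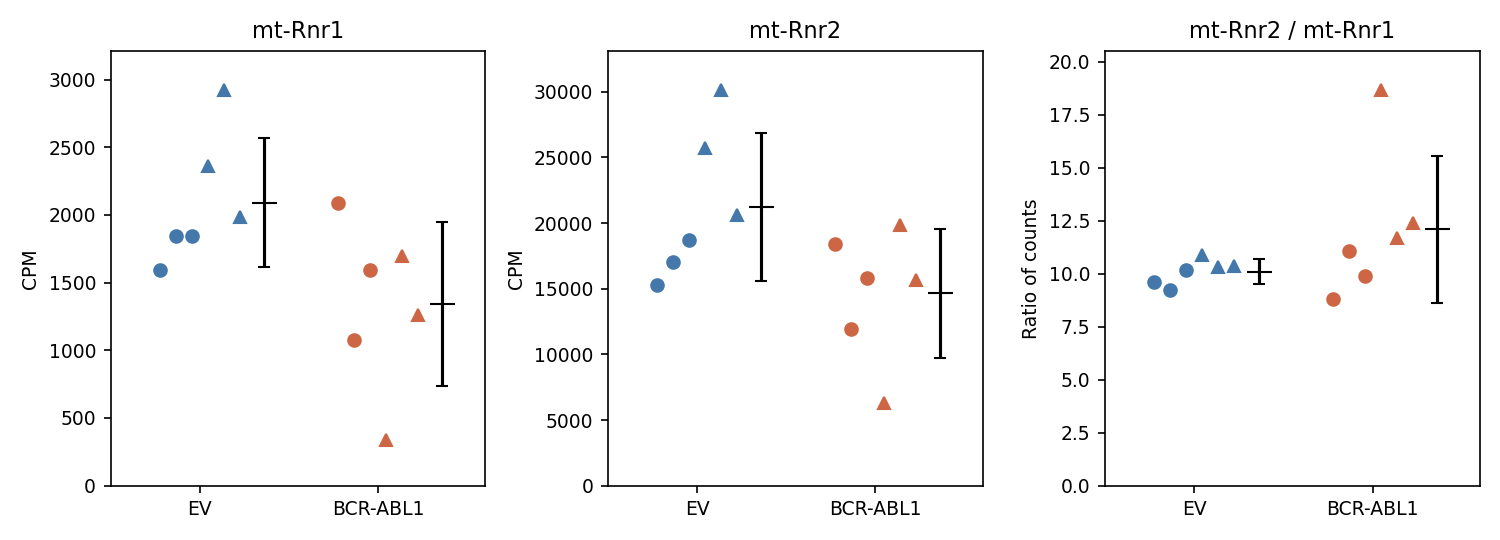
Levels (CPM, 2 panels) of the rRNA genes and the ratio of their counts in each line, with circles for mouse 1, triangles for mouse 2, lines 1A to 2C from left to right, and the mean ± SD of 6 lines as bars. BCR-ABL1 2A has the lowest level of either rRNA and the highest ratio, 18.7.

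Of the 13 protein coding genes, 0 passed the edgeR test beyond 1.5-fold, 0 had an unadjusted p under 0.05 and 0 passed in DESeq2. Of all 15038 tested genes, 5.99% passed the edgeR test as higher and 6.49% as lower. The share that passed in DESeq2 is not given here. Against no change, 0 of 13 passed in either direction (edgeR, adjusted p from 0.0546 to 0.875) and 2 had an unadjusted p under 0.05, while 22.5% of all tested genes passed as higher and 25.9% as lower. With RLE size factors 1 of the 13 passed as higher, beside 23.5% of all tested genes. With total counts alone 1 passed as lower, beside 28.8% of all tested genes. The log2 fold changes ran from -0.26 (mt-Nd4l) to 0.48 (mt-Nd3) with a median of -0.12, beside a median of -0.02 over all tested genes, and 8 were below 0 and 5 above. The 95% interval of the mean log2 CPM difference lay within 1.5-fold of no difference for 11 of the 13. For none of the 13 were the EV and BCR-ABL1 lines separate, whereas the groups did not overlap at 12.1% of tested genes in the higher and 13.5% in the lower direction.

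The core subunits of complex IV, cytochrome c oxidase, included the gene with the most protein coding counts. mt-Co1 alone took 66.6% to 71.6% of the protein coding mitochondrial counts in EV and 61.9% to 72.8% in BCR-ABL1. Its level was 4173 to 4756 CPM (median 4461) in EV and 3744 to 4452 CPM (median 3939) in BCR-ABL1. 5 of the 6 BCR-ABL1 lines were below every EV line, and BCR-ABL1 1B was within the EV range. The log2 fold change was -0.16, and the mean log2 CPM difference was -0.16 ± 0.05 (SE). Its adjusted p against no change was 0.0889 in the edgeR quasi-likelihood test. mt-Co2 had a median of 4.97 CPM in either group (log2 fold change -0.03), and mt-Co3 had medians of 3.73 CPM in EV and 4.47 CPM in BCR-ABL1 (0.14).

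Complex I, the NADH dehydrogenase that feeds electrons into the chain, has 7 subunits encoded here. mt-Nd3 had the largest difference in this class, with 13.4 to 35.7 CPM (median 23.8) in EV and 26.6 to 39.3 CPM (median 33.1) in BCR-ABL1. All BCR-ABL1 lines exceeded 5 of the 6 EV lines, and EV 2C lay inside their range. Its adjusted p against no change was 0.0546 without and 0.0439 with the mouse as a block (edgeR), and the 1.5-fold test did not pass either way. mt-Nd1 had medians of 746 CPM in EV and 902 CPM in BCR-ABL1 and a log2 fold change of 0.19. Those of mt-Nd2, mt-Nd4, mt-Nd4l, mt-Nd5 and mt-Nd6 were 0.07, -0.22, -0.26, -0.21 and 0.19, respectively.

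mt-Cytb, the subunit of complex III encoded here, had 517 to 636 CPM (median 579) in EV and 352 to 584 CPM (median 507) in BCR-ABL1, with the lowest value in line 2A and a log2 fold change of -0.22. Of the ATP synthase subunits, mt-Atp8 had medians of 79.1 and 63.5 CPM (log2 fold change -0.21), and mt-Atp6 had 45.6 and 42.1 CPM (-0.12) in EV and BCR-ABL1. The genes mt-Atp8 and mt-Atp6 overlap by 43 bases.

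**Figure D3:**
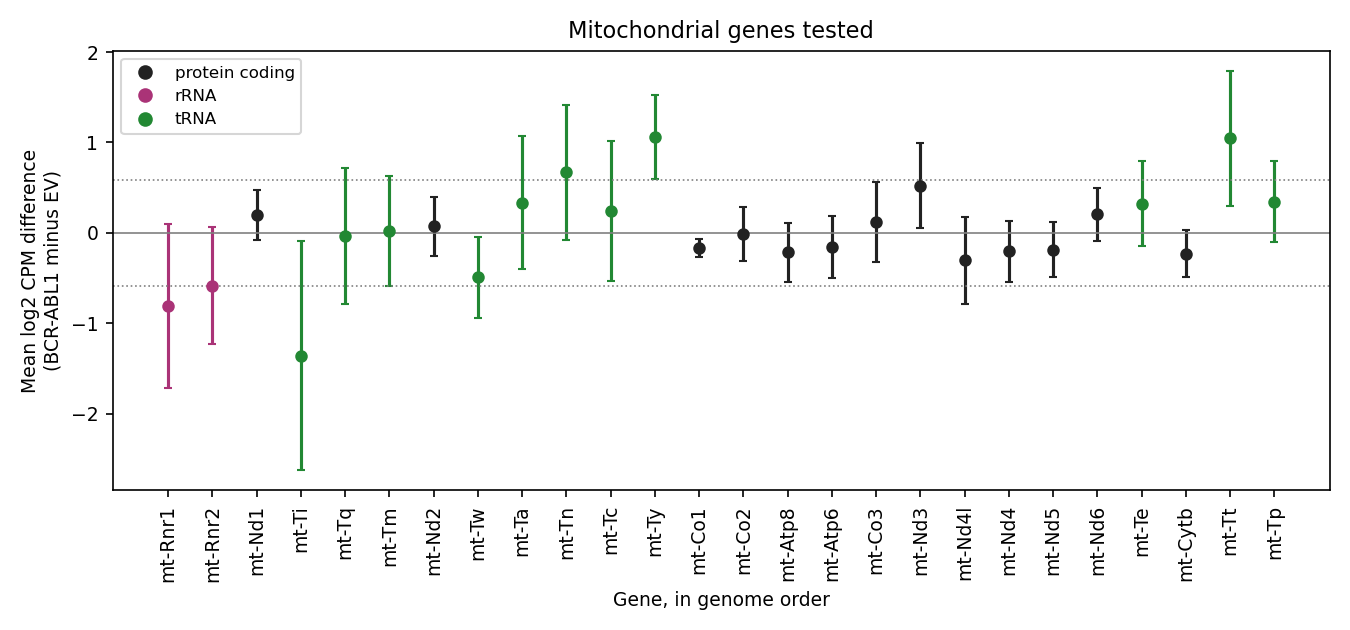
Difference of the mean log2 CPM (BCR-ABL1 minus EV, prior count 2) for the 26 mitochondrial genes tested, in genome order, with 95% intervals over 6 lines per group. Dotted lines mark a 1.5-fold difference. The 13 protein coding genes run from -0.30 (mt-Nd4l) to 0.52 (mt-Nd3), and among them the unadjusted intervals of mt-Nd3 and mt-Co1 leave out 0. mt-Ty and mt-Tt have the highest values, 1.06 and 1.05.

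mt-Nd6 is the only protein coding gene annotated on the minus strand, and its end overlaps that of mt-Nd5 on the plus strand by 14 bases. The ratio of their counts, mt-Nd6 over mt-Nd5, compares RNA of opposite strands only if counting used the strand. It was 0.401 to 0.907 (median 0.650) in EV and 0.777 to 0.871 (median 0.831) in BCR-ABL1. The BCR-ABL1 lines lay close together, and the EV lines spread from below to above all of them. The mean log2 ratio was higher in BCR-ABL1 by 0.39 (95% interval -0.01 to 0.79), with p = 0.0563 in a two-sided exact permutation test and 0.113 after adjustment over 2 ratios. With lines exchanged only within a mouse, the exact permutation p was 0.0600. Leaving out EV 1C gave an exact permutation p of 0.00433 and leaving out EV 2C gave 0.0325, so these lines decide which side of 0.05 the value falls on. Whether counting used the strand is not given in the sources used here, and without it reads of either gene cannot be assigned to a strand.

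Levels per length differed by over 3 orders of magnitude among mRNAs, and the lowest shared their sequence with other annotated genes. On chr1:24611535-24616197, 7 annotated unprocessed pseudogenes copy a run of the mitochondrial genome from mt-Co1 to mt-Nd4. The copies of mt-Co2, mt-Atp6, mt-Co3, mt-Nd4l and the first 876 bases of mt-Nd4 were identical (100%) over their aligned length. Gm28438 was 99.71% identical to mt-Nd3, and Gm29216 was 98.78% identical to the last part of mt-Co1. For mt-Co2, mt-Atp6, mt-Co3, mt-Nd3 and mt-Nd4l, 97.0% to 99.8% of all stretches as long as a read (150 bases) also occurred in another annotated transcript, and their median levels were 1.22 to 79.7 CPM per kb. For mt-Nd1, mt-Nd2, mt-Atp8, mt-Nd5, mt-Nd6 and mt-Cytb no such stretch did, and their median levels were 79.9 to 906 CPM per kb. Over single lines these sets overlapped, with mt-Nd3 at 38.6 to 113 and mt-Nd5 at 65.1 to 116 CPM per kb. Only annotated transcripts were searched. mt-Atp8 lies between mt-Co2 and mt-Atp6, inside the run, so a copy of it between the annotated pseudogenes would not have been seen. mt-Nd4 (59.2% shared) had 64.2 and mt-Co1 (23.6% shared) had 2778 CPM per kb.

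The contrast is plainest between genes of the same complex. mt-Co1 had 155080 to 305398 counts over the 12 lines, while mt-Co2 had 199 to 354 and mt-Co3 had 142 to 255. mt-Nd4l had 8 to 29. Reads that match several places are often left out or split in counting, and the setting used is not given in the sources used here, so levels of different mitochondrial genes are not compared as RNA amounts. The part of the shared sequence in these levels was not tested.

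The pseudogenes themselves had few counts. Gm28437, the copy of mt-Co3, had 169 to 384 counts in EV and 202 to 496 in BCR-ABL1. Gm29216 (mt-Co1) had 78 to 209 and 108 to 194, Gm28661 (mt-Co2) 56 to 167 and 68 to 158, and Gm10925 (mt-Atp6) 29 to 105 and 42 to 89. Gm28438 (mt-Nd3) had 14 to 32 and 15 to 60. Gm10222 (mt-Nd4l) and Gm28439 (mt-Nd4) stayed at or below 10 counts. Gm29055, an intronic transcript elsewhere on chromosome 1 that is not part of the run, had 57 to 106 and 35 to 121. Of these 8 genes, 6 passed the filter on low counts, and 0 were called in edgeR, with 0 at an unadjusted p under 0.05. With each mitochondrial gene and its copies counted together, no protein coding gene was called either.

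**Figure D4:**
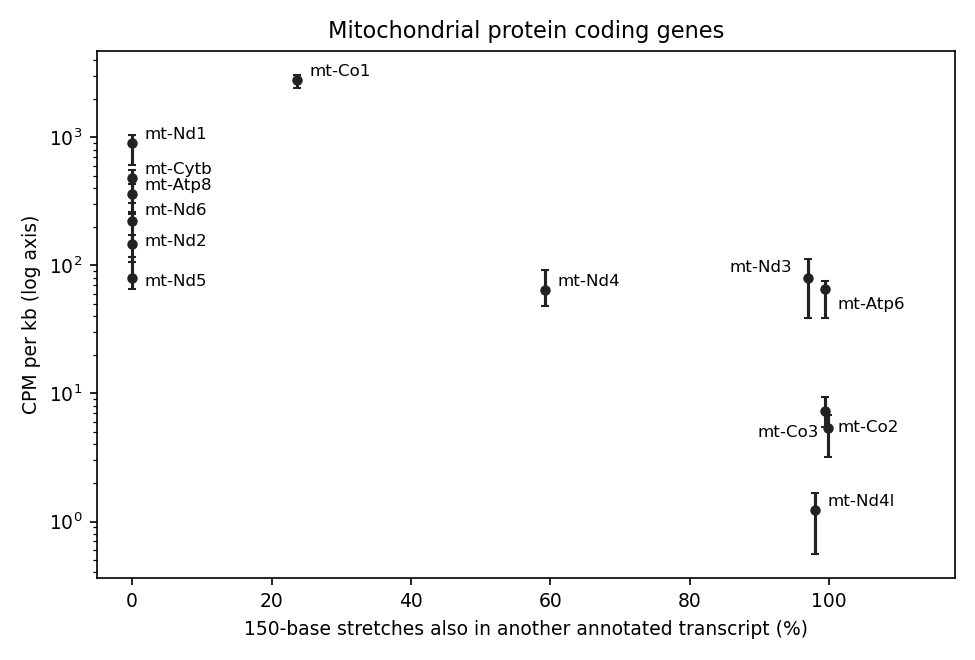
Level of the 13 mitochondrial protein coding genes (CPM per kb, log axis) against the percent of their 150-base stretches that occur in another annotated transcript. Points are medians and bars the lowest and highest of 12 lines. By median, the 5 genes above 90% sharing lie at or below 79.7 CPM per kb and the 6 genes with no such stretch at or above 79.9. Over single lines these sets overlap, with mt-Nd3 at 38.6 to 113 and mt-Nd5 at 65.1 to 116 CPM per kb. Sequence outside annotated transcripts was not searched.

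Of the 22 tRNA genes, 11 passed the filter on low counts, and the others had at most 13 counts in any line. mt-Tf, mt-Tv, mt-Td and mt-Tk had 0 counts in all 12 lines, which allows up to 3 counts in a library (counting error only). The genes are 59 to 75 bases long, shorter than the 150-base reads, so an untrimmed read on them extends beyond the gene. Of the 8 tRNA genes on the minus strand, 7 passed the filter, and of the 14 on the plus strand 4 did. Most plus-strand tRNAs lie directly between longer genes. Of the 13 tRNA genes with no more than 150 bases free between their neighbours on the same strand, 4 passed the filter, and of the 9 with more, or at the end of the annotation, 7 did. This grouping leaves out neighbours on the opposite strand, which matter too unless counting used the strand. That setting is not given in the sources used here. Of those that did not pass, mt-Ts1, mt-Td, mt-Tk, mt-Tg and mt-Tr lie between mt-Co1 and mt-Nd4, the run copied on chromosome 1. Copies of them outside annotated transcripts were not searched. mt-Tp alone took 35.9% to 52.1% of the tRNA counts.

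mt-Ty, the tRNA for tyrosine, was the only mitochondrial gene of the 26 tested that was called beyond 1.5-fold. Of all tested genes, 5.99% were called as higher and 6.49% as lower. Its counts were 15, 24, 18, 15, 22 and 31 in EV lines 1A to 2C and 65, 44, 43, 33, 39 and 44 in the corresponding BCR-ABL1 lines. Every BCR-ABL1 line exceeded every EV line, by counts and by CPM (0.276 to 0.559 in EV, 0.593 to 1.10 in BCR-ABL1). Such a lack of overlap in the higher direction was found at 12.1% of all tested genes. The log2 fold change was 1.12, the mean log2 CPM difference was 1.06 ± 0.21 (SE, n = 6 per group) and the adjusted p was 0.0393 in the edgeR quasi-likelihood test against a 1.5-fold change. The call rests on few counts: it was lost (adjusted p up to 0.0906) when any of 8 of the 12 lines was left out, namely EV 1A, 1B, 1C or 2B, or BCR-ABL1 1A, 1B, 1C or 2C. It was also lost in DESeq2 (0.273) and without the filter (0.0829).

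The difference in mt-Ty was larger between the lines of mouse 1 than between those of mouse 2. The log2 fold change was 1.73 among mouse 1 lines and 0.56 among mouse 2 lines, and the interaction of mouse and condition was -1.18 (mouse 2 minus mouse 1, adjusted p = 0.0293, edgeR quasi-likelihood test). It was the only one of the 26 tested mitochondrial genes with an interaction, compared with 16.9% of all tested genes. Leaving out 1 line at a time gave 0 to 4 such mitochondrial genes, with 0 without EV 1A or 1C or any of BCR-ABL1 1A, 1B, 1C, 2A and 2B, and 4 without EV 2B.

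mt-Tt, the tRNA for threonine, had 68, 173, 121, 124, 161 and 212 counts in EV and 236, 277, 134, 445, 349 and 340 in BCR-ABL1. By CPM it was 1.28 to 3.82 (median 2.85) in EV and 3.04 to 8.57 (median 5.55) in BCR-ABL1, and only BCR-ABL1 1C fell inside the EV range. The log2 fold change was 1.04 with an adjusted p of 0.161 (edgeR, beyond 1.5-fold). Blocking on the mouse gave a log2 fold change of 1.07 with an adjusted p of 0.0379 (edgeR), so that mt-Tt passed in that fit, in which 7.49% of all genes passed as higher and 7.18% as lower. mt-Tt lies on the plus strand directly after mt-Cytb, which had a log2 fold change of -0.22. mt-Tp, its neighbour on the minus strand, had 8.66 to 21.1 CPM (median 12.4) in EV and 12.9 to 19.1 CPM (median 16.2) in BCR-ABL1, with a log2 fold change of 0.30 that did not pass.

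mt-Ti and mt-Tw passed as lower against no change and did not pass beyond 1.5-fold. mt-Ti, the tRNA for isoleucine, had 13, 60, 16, 22, 35 and 176 counts in EV and 6, 16, 10, 13, 17 and 16 in BCR-ABL1. EV 2C had the highest value by far, and the groups overlapped. The log2 fold change was -1.97 (adjusted p = 0.0829 beyond 1.5-fold and 0.0187 against no change, edgeR), and it was -1.11 without EV 2C, with an adjusted p of 0.179 beyond 1.5-fold. Without EV 1C the 1.5-fold test passed (log2 fold change -2.18, adjusted p = 0.0468, edgeR). mt-Tw, for tryptophan, was 3.10 to 7.84 CPM (median 4.50) in EV and 2.82 to 4.03 CPM (median 3.11) in BCR-ABL1, with a log2 fold change of -0.55 and an adjusted p of 0.0456 against no change. Like mt-Ti, it had its highest count, 435, in EV 2C. For the tRNA class, 2 of 11 genes were thus higher (mt-Ty and mt-Tt) and 2 lower against no change, beside 22.5% and 25.9% of all tested genes, so the count is near the background.

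The remaining tRNA genes did not pass any of these tests. Their log2 fold changes were -0.18 (mt-Tq, glutamine), 0.03 (mt-Tm, methionine), 0.22 (mt-Ta, alanine), 0.56 (mt-Tn, asparagine), 0.08 (mt-Tc, cysteine) and 0.35 (mt-Te, glutamate). The cluster mt-Ta, mt-Tn, mt-Tc and mt-Ty lies on the minus strand in a row, and only mt-Ty of these was called. The groups of mt-Tn overlapped, since the EV lines spanned 0.101 to 0.595 CPM and the BCR-ABL1 lines 0.270 to 0.477 CPM.

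**Figure D5:**
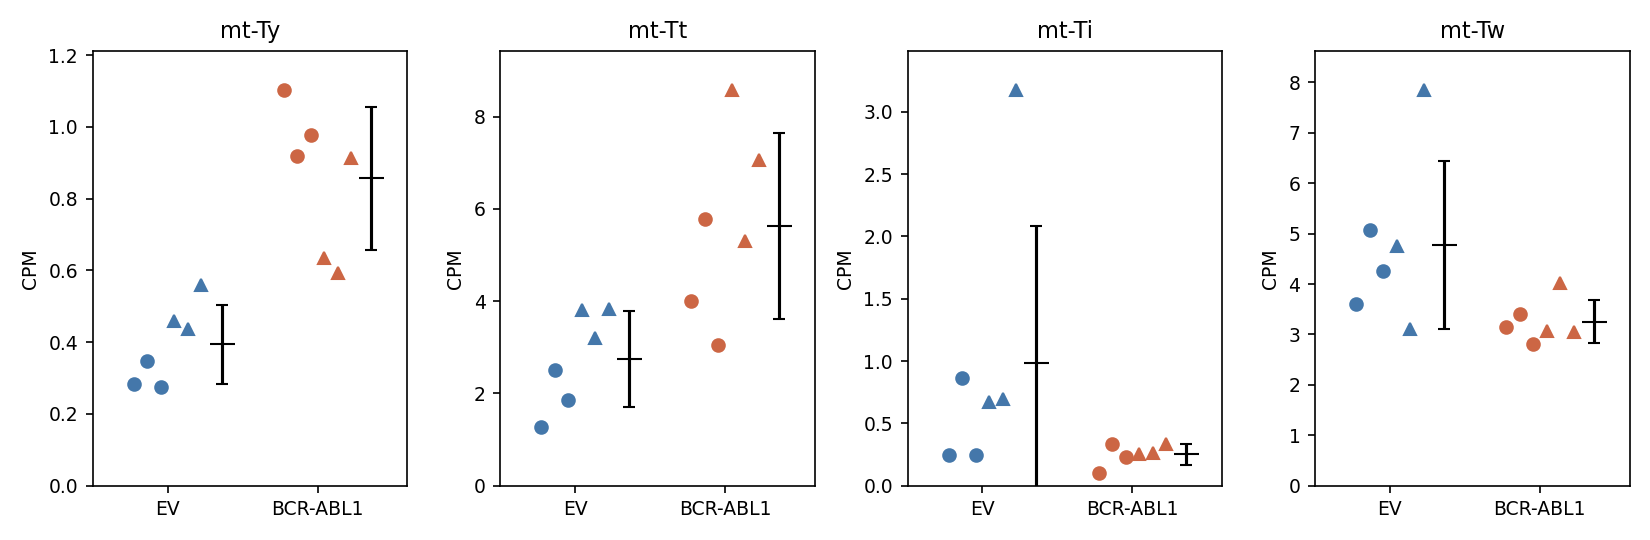
Levels (CPM) of the tRNA genes mt-Ty, mt-Tt, mt-Ti and mt-Tw in each line, with circles for mouse 1, triangles for mouse 2, lines 1A to 2C from left to right, and the mean ± SD of 6 lines as bars (that of mt-Ti in EV would reach below 0 and ends at the axis). Only for mt-Ty do all BCR-ABL1 lines (0.593 to 1.10) lie above all EV lines (0.276 to 0.559).

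Nuclear genes whose products work with the mitochondrial genome were examined beside it. DESeq2 called 0 genes of these lists beyond 1.5-fold. The share of all tested genes that it called is not given here, so this is not read as a result about the lists. Of the 77 nuclear subunits of the respiratory chain and ATP synthase, 0 were called beyond 1.5-fold (edgeR, 1 at an unadjusted p under 0.05), and 26 were higher and 0 lower against no change. This is 33.8% higher, beside 22.5% higher and 25.9% lower of all tested genes, and by total counts alone 18 were higher and 1 lower, beside 17.8% and 28.8%. Their median log2 fold change was 0.18. The largest were Uqcrb of complex III (62.8 to 148 CPM in EV, 147 to 190 in BCR-ABL1, log2 fold change 0.81), Cycs, the electron carrier cytochrome c (0.73), and Ndufa12 (0.70) and Ndufc2 (0.58) of complex I. When EV 2C was left out, 3 of the 77 passed the 1.5-fold test as higher. The protein coding genes of the mitochondrial genome, which encode partners of these subunits, had a median of -0.12.

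Of the 77 tested genes for proteins of the mitochondrial ribosome, 0 were called beyond 1.5-fold (edgeR, 1 at an unadjusted p under 0.05), and 34 (44.2%) were higher and 4 (5.19%) lower against no change, beside 22.5% and 25.9% of all tested genes. The median log2 fold change was 0.23. Mrpl19 (log2 fold change 0.72), Mrpl36 (0.67), Mrpl11 (0.58) and Mrps18b (0.53) had the largest values among the higher ones. Mrpl52 (-1.11), Mrpl24 (-0.50), Mrpl49 (-0.34) and Mrps9 (-0.23) were the lower ones. Mrpl52 was called beyond 1.5-fold with the mouse as a block (adjusted p = 0.0132, edgeR) and not without it (0.0825). Leaving out EV 2C gave 1 higher call beyond 1.5-fold, and leaving out EV 2A or EV 2B gave 1 lower call. The shares of all tested genes in those fits are not given here. By total counts alone, 20 were higher and 5 lower against no change, beside 17.8% and 28.8% of all tested genes.

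Of 19 genes for copying and transcribing mitochondrial DNA, 1 was called as higher beyond 1.5-fold, beside 5.99% of all tested genes. Against no change, 26.3% (5) were higher and 21.1% (4) lower, near the 22.5% and 25.9% of all tested genes. Tefm, which keeps the mitochondrial RNA polymerase moving along its template, was the called one: it had 7.02 to 13.5 CPM (median 8.07) in EV and 14.7 to 22.3 CPM (median 18.4) in BCR-ABL1, with no overlap, a log2 fold change of 1.06 and an adjusted p of 0.0235 (edgeR). The call was lost when EV 1C, BCR-ABL1 1A or BCR-ABL1 1B was left out. Mgme1 (0.70), an exonuclease of mitochondrial DNA, and Ssbp1 (0.38), the protein that covers its single strands, were higher against no change, with no overlap of the groups. Rnaseh1 (0.28) was higher with an overlap. Polg2 (-0.56) and Polg (-0.49), the subunits of the DNA polymerase, Mterf3 (-0.36) and the RNA polymerase Polrmt (-0.35) were lower, with no overlap. The groups did not overlap at 12.1% of all tested genes in the higher and 13.5% in the lower direction. Tfb2m, an initiation factor, was higher against no change (0.25), whereas Tfam, which packs mitochondrial DNA, had a log2 fold change of 0.15 and did not pass (adjusted p = 0.142, edgeR). Scaling by total counts alone gave 3 higher and 6 lower in this list, beside 17.8% and 28.8% of all tested genes.

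Of 37 genes for processing, modification and decay of mitochondrial RNA, 0 were called beyond 1.5-fold (edgeR, 0 at an unadjusted p under 0.05), and 16 (43.2%) were higher and 8 (21.6%) lower against no change (median 0.29), beside 22.5% and 25.9% of all tested genes. By total counts alone, 12 were higher and 9 lower, beside 17.8% and 28.8% of all tested genes. Elac2, which cuts the 3′ ends of tRNAs, was higher (0.54), as were Pus1 (0.59), a pseudouridine synthase of tRNAs, Fastkd2 (0.55) and Tbrg4 (0.52). Slirp, an mRNA-binding partner of Lrpprc, was higher (0.52, 52.8 to 90.6 CPM in EV and 78.5 to 101 in BCR-ABL1), and Lrpprc itself, at 75.6 to 183 and 137 to 159 CPM, did not pass (0.41, adjusted p = 0.0691, edgeR). Rpusd3 (-0.62), Nsun4 (-0.43), Mrm2 (-0.37) and Ptcd1 (-0.34) were lower.

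The enzymes that charge mitochondrial tRNAs included 18 tested genes, of which 0 were called beyond 1.5-fold (edgeR, 0 at an unadjusted p under 0.05) and 5 (27.8%) were higher and 3 (16.7%) lower against no change, near the 22.5% and 25.9% of all tested genes. Gars (0.70) and Kars (0.53), which also serve the cytosol, Ears2 (0.52) and Yars2 (0.38) had the largest values among the higher ones. Yars2 charges the tRNA that mt-Ty encodes. Fars2 (-0.60), Cars2 (-0.48) and Hars2 (-0.23) were lower. By total counts alone, 2 were higher and 3 lower, beside 17.8% and 28.8% of all tested genes. Without EV 2C, 1 was called as higher beyond 1.5-fold, and the share of all tested genes in that fit is not given here. Of the 9 tested regulators of mitochondrial biogenesis (11 listed), 0 were called beyond 1.5-fold (edgeR, 0 at an unadjusted p under 0.05) and 4 (44.4%) were higher against no change, beside 22.5% of all tested genes, namely Pprc1 (0.63), Esrra (0.42), Gabpa (0.18) and Yy1 (0.15). By total counts alone, 1 of the 9 was higher, beside 17.8% of all tested genes. Myc was at 31.0 to 195 CPM among the EV lines and at 70.4 to 135 CPM among the BCR-ABL1 lines (log2 fold change 0.17, not passed), Ppargc1b had -0.01, and Ppargc1a was not tested because its counts were too low.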

How the data were processed

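RNA of 12 cell lines from 2 mice was sequenced (TruSeq stranded total RNA, paired-end reads of 150 bases). The authors deposited raw read counts per gene. The labels list FastQC 0.11.5, Trimmomatic 0.36, TopHat2 2.1.1, Bowtie2 2.3.2, featureCounts 1.5.3 and the build GRCm38, and strand and multi-mapping settings are not given in the sources used here. Symbols, positions and sequences came from GENCODE M21 (51633 of 51826 identifiers matched). Counts were filtered (filterByExpr, 15038 genes kept), TMM-scaled and fitted with edgeR 4.0.16 (R 4.3.3, glmQLFit), and BCR-ABL1 was tested against EV beyond 1.5-fold (glmTreat) at an adjusted p below 0.05 (Benjamini-Hochberg) over all tested genes, without a block. DESeq2 1.42.0, other scalings, filters, single mice and left-out lines were alternatives. Intervals used the pooled SD of log2 CPM with a prior count of 2. On simulated counts, the 1.5-fold test recovered 171 of 200 genes changed by a fold of 4. These genes had a mean of at least 1 CPM, so the rate does not cover mt-Ty or smaller changes. Exact permutation tests compared log2 ratios of counts.

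Lines of the same mouse deviated together (r from 0.0853 to 0.240 over 18 pairs across the groups, against -0.203 to -0.0636 for 18 pairs of different mice), so the mouse pairs the groups. No lines of a group agreed within sampling noise. The lines of a group share 2 animals, so p-values measure the spread between lines. The genes and lists were chosen with earlier results of these data known. All tested mitochondrial genes were named, as were, of each nuclear list, called genes (here against no change) with the largest log2 fold changes, up to 4 per direction, and 8 regulators in any case. Counts of 0 in a library are given as up to 3 counts.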

Additional observations from a re-analysis of the deposited data

Results flagged for a closer look

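Among 62 groups of 6 lines checked for a line far from the others, 4 had one, and chance gives about 1 in 20. EV 2C had 3.17 CPM of mt-Ti, far above the other EV lines. BCR-ABL1 1C had 0.250 CPM of mt-Tc and BCR-ABL1 2A had 66.3 CPM of mt-Nd4, each far below the rest of its group. BCR-ABL1 2A had a ratio of mt-Rnr2 to mt-Rnr1 counts of 18.7, far above the rest. The effect on mt-Ty differed between the mice, by -1.18 on the log2 scale (mouse 2 minus mouse 1, adjusted p = 0.0293, edgeR quasi-likelihood test).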

How the results depend on the processing

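The 0 calls among protein coding and rRNA genes beyond 1.5-fold held under every alternative run. For tRNA genes, the 1 higher call became 0 without a filter, with a filter of at least 1 CPM in at least 6 lines (which does not test mt-Ty), in DESeq2 and among mouse 2 lines, and 2 against no change, with the mouse as a replicate block and among mouse 1 lines. Lower calls, 0 at first, became 1 in a likelihood ratio fit and 2 against no change. Leaving out 1 line at a time gave 0 to 1 higher and 0 to 1 lower calls, and 0 to 4 genes with a difference between the mice. Besides mt-Tt, the mouse block changed no call of a mitochondrial gene beyond 1.5-fold. With line pairs (mouse and letter) as the block, mt-Ty was not called (adjusted p = 0.108, edgeR) and mt-Tt was (0.0374).

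The protein coding and rRNA shares kept their direction. The tRNA share did not: among mouse 2 lines its mean was lower in BCR-ABL1 (0.00346% to 0.00401%) than in EV (0.00264% to 0.00551%). Relative to counts on protein coding genes, the protein coding share differed by -0.117 percentage points. Leaving out 1 line gave -0.0910 to -0.0645 points for protein coding, -0.906 to -0.603 for rRNA and 3.33e-05 to 0.000697 for tRNA genes. For mt-Nd6 over mt-Nd5, medians gave a log2 difference of 0.37 (exact permutation p = 0.0390), and left-out lines gave 0.26 to 0.50 (exact permutation p from 0.00433 to 0.102). For mt-Rnr2 over mt-Rnr1, they gave 0.0876 to 0.30 (exact permutation p from 0.0238 to 0.346).

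No called gene reversed. Of 26 genes, 12 with small log2 fold changes changed sign in some alternative. Among mouse 1 lines, mt-Tq had 0.46, mt-Co2 0.19, mt-Atp8 0.0709, mt-Atp6 0.12, mt-Nd4l 0.00698 and mt-Te -0.0557. Among mouse 2 lines, mt-Tm had -0.51, mt-Nd2 -0.0507, mt-Ta -0.10, mt-Tc -0.15, mt-Co3 -0.0387 and mt-Tp -0.0355. mt-Tm had -0.0440 by total counts and -0.0292 with the mouse as a block, and mt-Co2 had 0.0197 without a filter. Left-out lines gave mt-Tq -0.32 to 0.0283, mt-Tm -0.0892 to 0.21, mt-Nd2 -0.00136 to 0.14, mt-Tc -0.0648 to 0.50, mt-Co2 -0.0812 to 0.0382. The cause was not tested.

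The counts of mt-Ty, mt-Ti, mt-Tm, mt-Ta, mt-Tn, mt-Tc, mt-Te and mt-Nd4l lay below 200 in every library, which limits their precision, and 11 tRNA genes had too few counts to test.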
